A study of Homo sapiens with 6 samples.

Results

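Transcripts of 58 genes of the Wnt and beta-catenin pathway were described in PANC-1 cells, a line from human pancreatic ductal adenocarcinoma, with and without a deleted enhancer of DKK1. The genes were chosen by name from the known pathway, with no measured value in the rule, but with earlier results of these data known. Of them, 17 encode ligands or proteins that secrete them, 16 receptors and 4 secreted antagonists. A further 10 encode the cytoplasmic complex that marks beta-catenin for destruction and its regulators, 5 transcription factors and their inhibitor, and 6 feedback targets. All 58 were found among the 62703 genes listed, and 43 had enough counts to be tested among the 15179 tested genes. The study deleted e1, an enhancer within the DKK1 super-enhancer (DKK1-SE), to ask what this element controls. RNA was sequenced as stranded mRNA libraries from 3 samples of each genotype. The DKK1-SE-/- samples carry a homozygous deletion of e1 made with CRISPR-Cas9, and the DKK1-SE+/+ samples are unedited, wild-type PANC-1 cells. Both genotypes were grown in DMEM with fetal bovine serum and penicillin-streptomycin. A single homozygous line was obtained after limiting dilution, so the deletion and other properties of that clone cannot be told apart. The labels call the samples biological replicates without saying whether they were separate cultures. The p-values set the difference between the genotypes against the spread among the samples of each genotype, without any spread between clones. The libraries of the unedited cells held 21822300, 16475800 and 18803200 expected counts for replicates 1 to 3, and those of the deleted cells held 17359800, 20098100 and 17804800. Values are given in that order of replicates throughout.

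Wnt proteins are lipid-modified signals that bind Frizzled receptors together with a co-receptor, LRP5 or LRP6. In the absence of a Wnt signal, a complex of AXIN1, APC and the kinases GSK3A, GSK3B and CSNK1A1 marks beta-catenin (CTNNB1) for destruction. With a signal, Dishevelled proteins (DVL) hold the complex at the membrane, and beta-catenin enters the nucleus and acts with TCF and LEF factors on target genes, several of which encode inhibitors of the same pathway. DKK1 is a secreted inhibitor that binds LRP5 and LRP6, and other Wnts act without beta-catenin through ROR1, ROR2 and RYK.

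DKK1, the gene of the deleted enhancer, was read first as a check of the labels. Its level in TPM, a share of the library's transcripts corrected for gene length, was 229, 246 and 199 in the DKK1-SE+/+ samples and 66.8, 79.8 and 82.7 in the DKK1-SE-/- samples. Each of the 3 deleted samples lay below each of the 3 unedited samples, as the labels state, and DKK1 had a log2 fold change of -1.45 (standard error 0.112, Benjamini-Hochberg adjusted p = 6.16e-06 in edgeR's quasi-likelihood test). The fold change here and below is DKK1-SE-/- over DKK1-SE+/+, fitted on counts. The sequence before the start of DKK1 is printed further on, with those of 3 members.

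The label gives the tissue as pancreas, and marker lists were read to see which pancreatic cells the samples resemble. All 8 ductal epithelial markers were detected and tested, with a summed TPM of 1909.8, 1964 and 2007 in the DKK1-SE+/+ samples and 3217, 3159 and 2728 in the DKK1-SE-/- samples. KRT8 was the most abundant, at 936, 948 and 988 TPM and 1649, 1668 and 1362 TPM. The ductal list did not move as a unit, with 4 markers higher, among them KRT19 (log2 fold change 1.83) and MUC1 (1.36), and EPCAM (-0.67) and SOX9 (-0.39) lower. The call of EPCAM ended without any 1 of 5 libraries, at an adjusted p of 0.148, 0.0821 and 0.0688 without DKK1-SE+/+ replicates 1, 2 and 3 and 0.0948 and 0.0583 without DKK1-SE-/- replicates 1 and 2 (Benjamini-Hochberg, edgeR's quasi-likelihood test). That of SOX9 ended without DKK1-SE+/+ replicate 2 (0.0968), DKK1-SE+/+ replicate 3 (0.107) or DKK1-SE-/- replicate 2 (0.0884), by the same edgeR quasi-likelihood test with Benjamini-Hochberg adjustment. The 7 acinar markers summed to at most 0.37 TPM in any sample, with CTRB1 the most abundant by mean TPM. CPB1, CELA3A, PNLIP and AMY2A were at 0 in all 6. The 5 islet markers summed to at most 0.33 TPM, with GCG the most abundant by mean TPM and INS, SST and PPY at 0 in every sample. The samples therefore carried markers of the ductal list, chiefly KRT8 and KRT18. The markers of the acinar and islet cells of whole pancreas were absent or near 0.

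Markers of other cell types were read in the same way. Of the leukocyte markers, CD68, which is not confined to leukocytes, had 43.2, 40.9 and 46.5 TPM in the DKK1-SE+/+ samples and 67.8, 64.8 and 67.1 TPM in the DKK1-SE-/- samples, while PTPRC and CD3E had at most 1 count in a sample. CD68 was higher in the DKK1-SE-/- samples (log2 fold change 0.76), and so was CD14, at 0.62, 0.28 and 0.51 TPM against 1.07, 1.54 and 1.46 TPM, with a log2 fold change of 1.76 (standard error 0.398, Benjamini-Hochberg adjusted p = 0.00539 in edgeR's quasi-likelihood test). The 4 endothelial markers summed to 2.54, 2.57 and 2.12 TPM and 0.44, 0.55 and 0.58 TPM, with KDR the most abundant and lower by a log2 fold change of -2.49, and PECAM1, CDH5 and VWF at no more than 4 counts. The 6 fibroblast markers summed to 3.78, 2.72 and 4.73 TPM and 2.67, 5.6 and 2.57 TPM, with THY1 the most abundant and COL1A2 at 0 throughout. These are bulk samples, in which fewer cells with a transcript and less of it in each cell cannot be told apart. The part of KDR, CD68 and the other moving markers in the results on Wnt genes was not tested.

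Of the 43 tested members, 29 (67.4%) had a Benjamini-Hochberg adjusted p under 0.05 in edgeR's quasi-likelihood test, adjusted over all tested genes, beside 39.3% of all 15179 tested genes. Members that were higher in the DKK1-SE-/- samples numbered 10 (23.3%), beside 19.8% of all tested genes, and members that were lower numbered 19 (44.2%), beside 19.5%. The share of higher members was thus near that of all genes, and the share of lower members was above it. The study prints, for a differentially expressed gene (DEG), a limit of 1.2 on the absolute fold change and a p-value under 0.05, read here as unadjusted. With that 1.2 applied to the log2 fold change, the stricter reading used here, 9 members (20.9%) were called, beside 8.66% of all tested genes. Of the 43 tested members, 4 were called as higher, beside 4.96% of all tested genes, and 5 as lower, beside 3.7%. Applied to the linear fold change, as the words of the study read, the limit called 31 members (72.1%), beside 47.6% of all tested genes. These were 10 higher members (23.3%), beside 24.3%, and 21 lower members (48.8%), beside 23.3%. The median log2 fold change was -0.41 over the tested members and 0.03 over all tested genes. Because enough counts in 1 group are enough for a gene to be tested, a rarely transcribed member such as WNT11 or FZD9 entered the test through the group in which it was high, and the shares describe the list without testing it. The median log2 ratio of mean TPM over all tested genes was -0.10, so a TPM that was equal in both groups stood slightly above the shift of the other genes.

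**Figure D1:**
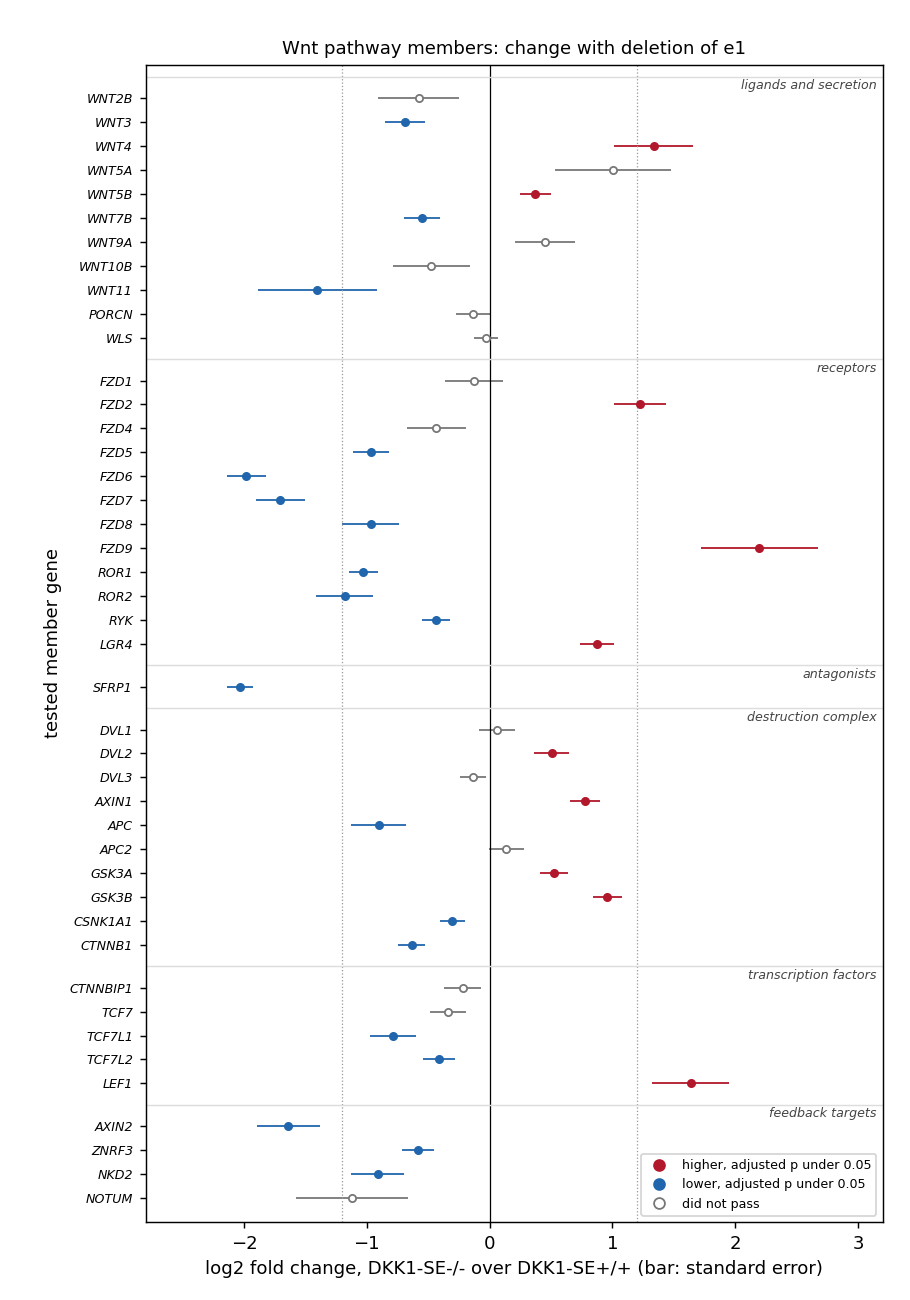
Log2 fold change of each of the 43 tested members, DKK1-SE-/- over DKK1-SE+/+ (3 samples each), with the standard error as a bar, by role. Red and blue points passed an adjusted p under 0.05, grey open points did not, and dotted lines mark log2 fold changes of -1.2 and 1.2. The lowest point is SFRP1 at -2.03 and the highest is FZD9 at 2.19.

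The remaining 15 members had too few counts for a test, and 11 of them had at most 5 counts in every sample. These were WNT3A, WNT6, WNT7A and RSPO3 among the ligands, FZD10, LGR5 and LGR6 among the receptors, the antagonists SFRP4, FRZB and WIF1, and the target SP5. RSPO3, a ligand of the LGR receptors, and FZD10 were at 0 in all 6 samples. A count of 0 allows up to 3 counts, or 0.137, 0.182 and 0.1595 CPM, counts scaled to the size of the library, in the DKK1-SE+/+ samples and 0.173, 0.149 and 0.168 CPM in the DKK1-SE-/- samples, a limit that covers counting error only. WNT10A reached 21 counts, WNT16 18, FZD3 15.0 and NKD1 11. The groups overlapped for all 4 of these in counts. Without the filter on counts, 56 members could be tested and 27 passed, beside 21.1% of all 31045 genes tested in that way. All 27 were among the 29 that passed with the filter, so none of these 15 members passed at this depth.

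Promoter sequence was read as a feature that the choice of members did not use. The promoter table used here, with RefSeq starts in GRCh38.p14, held 44 of the 58 members, and did not hold WNT7B, WNT10B, WNT11, FZD2, FZD3, FZD6, FZD7, FZD10, LGR5, SFRP1, AXIN2, ZNRF3, NKD1 or NOTUM. The 250 bases before each start were searched on both strands for the TCF and LEF motif, written here as CTTTGAT or CTTTGAA, the AP-1 motif TGACTCA and the GC box GGGCGG. The TCF and LEF motif occurred in 2086 of all 35116 promoters (5.94%) and in 1 of the 44 members, SP5. No member held the AP-1 motif, which occurred in 1476 promoters (4.2%). A GC box occurred in 35 of the 44 members (79.5%) and in 14973 of all promoters (42.6%). Each member was read at its first listed start only, while the shares of all promoters count every listed start, so the units differ. A match is a description, not a site or a cause. SP5 is shown because it was the member with TCF and LEF matches, and DKK1 because its enhancer was deleted. Its window lies wholly within an exon of PRKG1-AS1, a long noncoding RNA on the opposite strand. FZD5 and FZD9 are shown as a lower and a higher receptor with GC boxes. The windows are chr2:170715087-170715336, chr10:52314031-52314280 and chr7:73433528-73433777 on the plus strand and chr2:207769907-207770156 on the minus strand, each printed 5' to 3' along its gene's strand. Capitals mark the TCF and LEF motif in SP5 and DKK1 and the GC box in FZD5 and FZD9.
SP5: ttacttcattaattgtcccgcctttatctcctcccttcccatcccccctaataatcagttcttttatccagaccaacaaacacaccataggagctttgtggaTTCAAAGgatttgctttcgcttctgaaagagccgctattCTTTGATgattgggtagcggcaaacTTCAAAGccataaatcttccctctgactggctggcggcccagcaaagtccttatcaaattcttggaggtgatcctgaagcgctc
DKK1: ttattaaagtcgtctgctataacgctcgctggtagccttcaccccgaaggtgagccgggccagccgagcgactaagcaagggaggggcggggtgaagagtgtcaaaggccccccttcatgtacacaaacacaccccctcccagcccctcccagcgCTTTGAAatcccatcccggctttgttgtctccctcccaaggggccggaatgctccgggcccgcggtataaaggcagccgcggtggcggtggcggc
FZD5: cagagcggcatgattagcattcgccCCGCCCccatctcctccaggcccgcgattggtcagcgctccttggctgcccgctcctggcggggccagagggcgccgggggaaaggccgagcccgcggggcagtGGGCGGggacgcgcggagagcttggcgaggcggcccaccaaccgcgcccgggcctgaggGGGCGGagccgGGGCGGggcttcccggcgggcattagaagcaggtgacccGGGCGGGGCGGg
FZD9: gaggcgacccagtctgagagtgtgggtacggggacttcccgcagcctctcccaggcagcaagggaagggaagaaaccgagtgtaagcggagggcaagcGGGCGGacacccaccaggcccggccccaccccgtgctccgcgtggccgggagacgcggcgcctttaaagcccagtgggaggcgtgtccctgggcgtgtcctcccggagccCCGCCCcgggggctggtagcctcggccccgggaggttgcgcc
The SP5 window held 3 matches, whose first bases lay 148, 109 and 84 bases before the start, and its GC content was 45.6%. DKK1 held 1 match, FZD5 6 GC boxes at a GC content of 76.8%, and FZD9 2 GC boxes at 72.4%.

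Among the ligands and the proteins that secrete them, 11 of 17 members were tested. Of these 2 were higher (18.2%, beside 19.8% of all tested genes) and 3 lower (27.3%, beside 19.5%), which is near those shares. WLS, the carrier that brings Wnt proteins to the cell surface, was the most abundant, at 41.1, 41.1 and 44.9 TPM in the DKK1-SE+/+ samples and 34.4, 37.05 and 39.3 TPM in the DKK1-SE-/- samples. The TPM of WLS was a little lower in every deleted sample, while its CPM, here and below scaled with TMM factors, overlapped between the groups (70.8, 71.2 and 68.9 against 70.1, 69.3 and 67.3). On counts, WLS had a log2 fold change of -0.03 (standard error 0.0968, Benjamini-Hochberg adjusted p = 0.838 in edgeR's quasi-likelihood test). PORCN, the enzyme that attaches the lipid to Wnt proteins, had a log2 fold change of -0.14 (standard error 0.142, Benjamini-Hochberg adjusted p = 0.479 in edgeR's quasi-likelihood test), and its TPM overlapped between the groups.

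WNT5B, a ligand known mainly for signals without beta-catenin, had the highest TPM of the Wnt genes in every sample, at 27.3, 31.3 and 29.7 in the DKK1-SE+/+ samples and 32.6, 32.7 and 30.2 in the DKK1-SE-/- samples. These TPM values overlapped, with DKK1-SE-/- replicate 3 below DKK1-SE+/+ replicate 2, whereas its CPM did not (30.5, 32.97 and 32.8 against 45.8, 43.5 and 35.4). WNT5B had a log2 fold change of 0.37 (standard error 0.126, Benjamini-Hochberg adjusted p = 0.0369 in edgeR's quasi-likelihood test). That call ended without any 1 of 5 libraries, and the 3 values without a DKK1-SE+/+ replicate were 0.139, 0.0988 and 0.0919 for replicates 1, 2 and 3 (Benjamini-Hochberg adjusted p by edgeR's quasi-likelihood test). Without DKK1-SE-/- replicate 1 it was 0.0936 and without DKK1-SE-/- replicate 2 it was 0.114, by the same edgeR quasi-likelihood test with Benjamini-Hochberg adjustment. It also ended without the filter on counts, with each fit on TPM and with a correction for GC content, and the adjusted p of WNT5B ranged from 0.00334 to 0.472 over all alternatives, edgeR's quasi-likelihood test and limma included, each with Benjamini-Hochberg adjustment.

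WNT7B, a ligand of the beta-catenin branch, followed in abundance at 20.7, 27.1 and 27.9 TPM in the DKK1-SE+/+ samples and 17.2, 14.3 and 15.5 TPM in the DKK1-SE-/- samples. All 3 deleted samples were lower than all 3 unedited samples, with a log2 fold change of -0.55 (standard error 0.144, Benjamini-Hochberg adjusted p = 0.0113 in edgeR's quasi-likelihood test). Its adjusted p crossed the threshold without DKK1-SE+/+ replicate 2 (0.0555) or DKK1-SE+/+ replicate 3 (0.0517), and ranged from 5.01e-05 to 0.0555 over the alternatives (Benjamini-Hochberg adjustment of edgeR's quasi-likelihood test, DESeq2 and limma). WNT3, another ligand of this branch, stood at 3.29, 3.48 and 3.48 TPM and fell to 1.68, 1.86 and 1.95 TPM. No values overlapped, and WNT3 had a log2 fold change of -0.69 (standard error 0.161, Benjamini-Hochberg adjusted p = 0.00625 in edgeR's quasi-likelihood test), a call that held in every alternative tried.

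WNT4 and WNT11 were rare transcripts. WNT4, a ligand known from kidney and gonad development, had 0.80, 0.23 and 0.26 TPM in the DKK1-SE+/+ samples and 0.83, 1.26 and 1.09 TPM in the DKK1-SE-/- samples. Its lowest deleted sample stood just above its highest unedited sample in TPM, and further apart in CPM (0.972, 0.656 and 0.733 against 1.84, 2.24 and 1.95). WNT4 was higher, with a log2 fold change of 1.34 (standard error 0.321, Benjamini-Hochberg adjusted p = 0.00737 in edgeR's quasi-likelihood test), and passed in each alternative but the fit on log2(TPM + 0.1), where the adjusted p was 0.0543 in limma with Benjamini-Hochberg adjustment, edgeR's quasi-likelihood test giving the value before it (range 0.00523 to 0.0543). WNT11, a ligand of the branch without beta-catenin, had 0.48, 0.47 and 0.46 TPM in the DKK1-SE+/+ samples and 0.08, 0.17 and 0.21 TPM in the DKK1-SE-/- samples. These rest on 14, 10 and 11 counts against 2, 5 and 5, with no overlap. WNT11 fell with a log2 fold change of -1.40 (standard error 0.484, Benjamini-Hochberg adjusted p = 0.0392 in edgeR's quasi-likelihood test).

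The call of WNT11 ended without any 1 of 5 libraries. The Benjamini-Hochberg adjusted p by edgeR's quasi-likelihood test for WNT11 was 0.0979, 0.0884 and 0.0753 without DKK1-SE+/+ replicates 1, 2 and 3, and 0.121 and 0.08199 without DKK1-SE-/- replicates 1 and 2. DESeq2 gave WNT11 an adjusted p of 0.134, and over all alternatives it ranged from 0.0231 to 0.151 (Benjamini-Hochberg adjustment, edgeR's quasi-likelihood test and the other tools included). The remaining tested ligands did not pass: WNT2B, WNT5A, WNT9A and WNT10B had log2 fold changes of -0.58, 1.00, 0.45 and -0.47, with adjusted p-values from 0.114 to 0.256 (Benjamini-Hochberg, edgeR's quasi-likelihood test). WNT5A and WNT9A overlapped between the groups in TPM, and WNT2B and WNT10B did not. Without DKK1-SE-/- replicate 3, WNT9A passed, at 0.00842 (Benjamini-Hochberg adjusted p, edgeR's quasi-likelihood test).

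**Figure D2:**
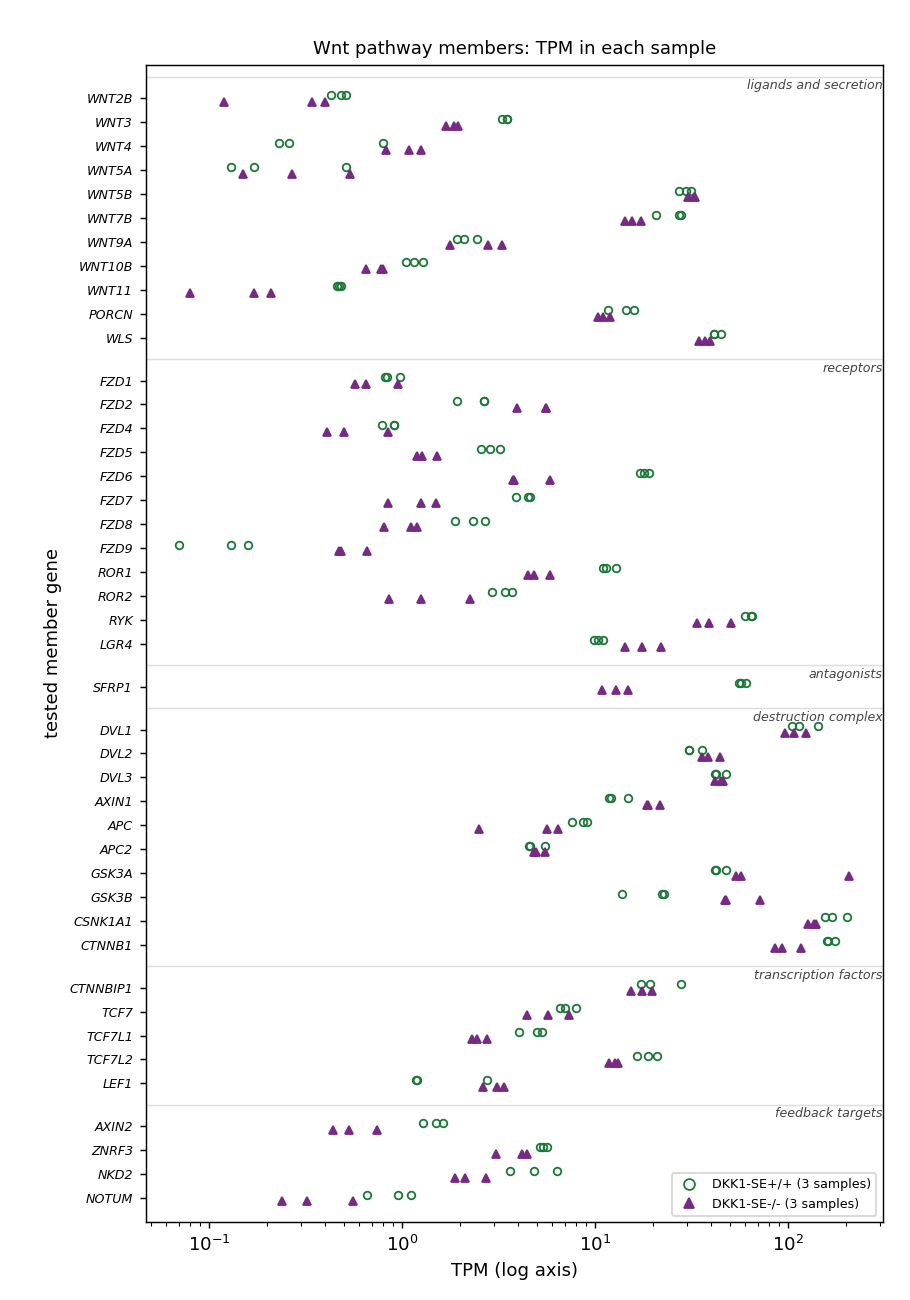
TPM of each tested member in each sample on a log axis, by role, with DKK1-SE+/+ samples as green circles and DKK1-SE-/- samples as purple triangles (3 each). The groups stand apart for SFRP1, FZD6 and FZD7, and the high triangle of GSK3A is DKK1-SE-/- replicate 2 at 207 TPM.

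The Frizzled genes encode the receptors that bind Wnt proteins, and 8 of 10 were tested. FZD6 was the most abundant in the unedited cells, at 17.99, 18.96 and 17.2 TPM, and had 3.75, 3.78 and 5.85 TPM in the DKK1-SE-/- samples. All 3 deleted samples were far below the unedited samples, and FZD6 fell with a log2 fold change of -1.98 (standard error 0.158, Benjamini-Hochberg adjusted p = 7.11e-06 in edgeR's quasi-likelihood test). FZD7 went from 3.9, 4.59 and 4.48 TPM to 1.5, 0.85 and 1.25 TPM, again with no overlap. It fell with a log2 fold change of -1.70 (standard error 0.1997, Benjamini-Hochberg adjusted p = 0.000105 in edgeR's quasi-likelihood test). FZD5 had 2.55, 2.84 and 3.22 TPM in the DKK1-SE+/+ samples and 1.2, 1.27 and 1.51 TPM in the DKK1-SE-/- samples. All 3 deleted samples of FZD5 were lower, and it fell with a log2 fold change of -0.97 (standard error 0.145, Benjamini-Hochberg adjusted p = 0.000508 in edgeR's quasi-likelihood test). FZD8 had 1.87, 2.33 and 2.68 TPM against 1.11, 1.2 and 0.81 TPM. Its deleted samples were all lower, with a log2 fold change of -0.97 (standard error 0.232, Benjamini-Hochberg adjusted p = 0.00736 in edgeR's quasi-likelihood test).

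FZD2 and FZD9 moved the other way. FZD2 had 1.93, 2.67 and 2.65 TPM in the DKK1-SE+/+ samples and 5.54, 5.55 and 3.92 TPM in the DKK1-SE-/- samples. DKK1-SE-/- replicate 3 was the lowest of the deleted samples and still above every unedited sample, and FZD2 rose with a log2 fold change of 1.22 (standard error 0.21, Benjamini-Hochberg adjusted p = 0.00112 in edgeR's quasi-likelihood test). FZD9 was nearly silent in the unedited cells, at 0.16, 0.07 and 0.13 TPM, and reached 0.66, 0.47 and 0.48 TPM in the deleted cells. These levels rest on 6, 2 and 4 counts against 20, 17 and 14, which do not overlap. FZD9 rose with a log2 fold change of 2.19 (standard error 0.475, Benjamini-Hochberg adjusted p = 0.00426 in edgeR's quasi-likelihood test). The calls of FZD2, FZD5, FZD6, FZD7, FZD8 and FZD9 kept their direction and stayed past the threshold in every alternative tried that tested them. FZD1 and FZD4 overlapped between the groups and did not pass, with log2 fold changes of -0.13 and -0.43 (adjusted p = 0.704 and 0.175, Benjamini-Hochberg, edgeR's quasi-likelihood test). FZD4 passed without DKK1-SE-/- replicate 3 (adjusted p = 0.0167, Benjamini-Hochberg, edgeR's quasi-likelihood test). Exons of FZD4 share 1399 bases with PRSS23 on the opposite strand, which was lower with a log2 fold change of -0.62.

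ROR1, ROR2 and RYK are receptors through which Wnt proteins act without beta-catenin. All 3 passed as lower in the deleted cells, beside 19.5% of all tested genes, but RYK did not with a correction for GC content. RYK was the most abundant of all receptors in the list, at 59.6, 64.3 and 64.98 TPM in the DKK1-SE+/+ samples and 33.6, 38.7 and 50.6 TPM in the DKK1-SE-/- samples. DKK1-SE-/- replicate 3 lay nearest to the unedited samples but below them, and RYK had a log2 fold change of -0.44 (standard error 0.116, Benjamini-Hochberg adjusted p = 0.0124 in edgeR's quasi-likelihood test). That call of RYK ended without DKK1-SE+/+ replicate 2 (adjusted p = 0.0673) or DKK1-SE-/- replicate 2 (0.0526), by edgeR's quasi-likelihood test with Benjamini-Hochberg adjustment. With a correction for GC content the log2 fold change of RYK was 0.04, so its direction depended on that choice, and its adjusted p ranged from 0.000553 to 0.816 over the alternatives (Benjamini-Hochberg, edgeR's quasi-likelihood test and the other tools). ROR1 had 10.97, 12.8 and 11.4 TPM against 4.5, 4.8 and 5.87 TPM. Its groups were far apart beside their spread, and ROR1 fell with a log2 fold change of -1.03 (standard error 0.121, Benjamini-Hochberg adjusted p = 0.000105 in edgeR's quasi-likelihood test). ROR2 had 2.92, 3.73 and 3.42 TPM in the DKK1-SE+/+ samples and 2.26, 1.26 and 0.86 TPM in the DKK1-SE-/- samples. The deleted samples of ROR2 differed more among themselves, with replicate 1 the highest, but none reached the unedited samples, and ROR2 fell with a log2 fold change of -1.18 (standard error 0.233, Benjamini-Hochberg adjusted p = 0.00256 in edgeR's quasi-likelihood test). ROR1 and ROR2 passed in every alternative tried.

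LGR4 encodes the receptor of R-spondins, which strengthen Wnt signals by sparing Frizzled proteins from ZNRF3. It had 9.91, 10.9 and 10.4 TPM in the DKK1-SE+/+ samples and 14.3, 17.5 and 21.99 TPM in the DKK1-SE-/- samples. Each deleted sample was above each unedited sample, with replicate 3 the highest, and LGR4 rose with a log2 fold change of 0.87 (standard error 0.138, Benjamini-Hochberg adjusted p = 0.000728 in edgeR's quasi-likelihood test). The call of LGR4 held in every alternative tried. Of the related receptors, LGR5 had at most 5 counts and LGR6 at most 3 in any sample.

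SFRP1, which binds Wnt proteins outside the cell, was the tested member of the 4 antagonists. Its TPM was 55.3, 60.3 and 56.7 in the DKK1-SE+/+ samples and 12.9, 10.8 and 14.9 in the DKK1-SE-/- samples. The counts behind them were 3956, 3070 and 3378 against 750, 770 and 819, so the difference was many times the spread within either group. SFRP1 had a log2 fold change of -2.03 (standard error 0.108, Benjamini-Hochberg adjusted p = 4.30e-07 in edgeR's quasi-likelihood test), the smallest adjusted p of the 43 tested members, and passed in every alternative tried. Its relatives SFRP4 and FRZB, and the unrelated inhibitor WIF1, reached at most 2, 2 and 1 counts in a sample.

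The 10 genes of the destruction complex and its regulators were all tested, and 4 were higher (40%, beside 19.8% of all tested genes) and 3 lower (30%, beside 19.5%). CSNK1A1, a kinase that starts the marking of beta-catenin, was the most abundant by mean TPM. It had 155, 169 and 203 TPM in the DKK1-SE+/+ samples and 126, 139 and 135 TPM in the DKK1-SE-/- samples. All 3 deleted samples were lower, and CSNK1A1 had a log2 fold change of -0.30 (standard error 0.1002, Benjamini-Hochberg adjusted p = 0.0328 in edgeR's quasi-likelihood test). Its exons share 4194 bases with the long noncoding RNA ENSG00000230551 on the same strand, and expected counts divide such reads between genes. The adjusted p of CSNK1A1 without DKK1-SE+/+ replicates 1, 2 and 3 was 0.0708, 0.138 and 0.124, and without DKK1-SE-/- replicates 1 and 2 it was 0.0571 and 0.0786 (Benjamini-Hochberg, edgeR's quasi-likelihood test). The call thus ended without any of these 5 libraries, and a correction for GC content brought the log2 fold change of CSNK1A1 to -0.01. Over the alternatives its adjusted p ranged from 0.00463 to 0.9495 (Benjamini-Hochberg, edgeR's quasi-likelihood test and the other tools).

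CTNNB1, which encodes beta-catenin itself, had 174, 161 and 158 TPM in the DKK1-SE+/+ samples and 85.9, 93.1 and 116 TPM in the DKK1-SE-/- samples. The groups did not overlap, and CTNNB1 fell with a log2 fold change of -0.64 (standard error 0.112, Benjamini-Hochberg adjusted p = 0.00131 in edgeR's quasi-likelihood test), a call that held in every alternative tried. These are transcript levels, and the amount of beta-catenin protein was not measured here. AXIN1, the scaffold of the destruction complex, had 11.7, 12.02 and 14.8 TPM against 21.8, 18.7 and 18.7 TPM. Every deleted sample was above every unedited sample, and AXIN1 rose with a log2 fold change of 0.78 (standard error 0.122, Benjamini-Hochberg adjusted p = 0.00067 in edgeR's quasi-likelihood test) and passed in every alternative tried. APC, the other large scaffold, went from 9.05, 8.63 and 7.63 TPM to 2.49, 5.66 and 6.46 TPM. DKK1-SE-/- replicate 1 was the lowest by far and the groups did not overlap. APC fell with a log2 fold change of -0.90 (standard error 0.226, Benjamini-Hochberg adjusted p = 0.00907 in edgeR's quasi-likelihood test). In limma's fits on TPM it did not pass, and its adjusted p reached 0.0806 (Benjamini-Hochberg), over a range from 1.35e-08 with edgeR's quasi-likelihood test and the other tools.

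GSK3A and GSK3B encode the kinases that complete the marking of beta-catenin. GSK3B had 13.8, 22.6 and 22.2 TPM in the DKK1-SE+/+ samples and 71.2, 47.8 and 46.8 TPM in the DKK1-SE-/- samples. Its CPM were closer within each group, at 28.9, 28.5 and 28.3 against 54.3, 50.5 and 61.96. GSK3B was higher in each deleted sample on both scales, with a log2 fold change of 0.96 (standard error 0.116, Benjamini-Hochberg adjusted p = 0.0001299 in edgeR's quasi-likelihood test), and passed in every alternative tried. GSK3A had 42.02, 42.3 and 47.6 TPM in the unedited samples and 57.2, 207 and 53.9 TPM in the deleted samples. DKK1-SE-/- replicate 2 stood apart in TPM alone, since its CPM were 57.1, 59.1 and 58.7 against 93.8, 83.5 and 73.9. In that library the TPM of GSK3A per count was 3.79 times the median of the 6 samples, and the cause was not tested. GSK3A had a log2 fold change of 0.52 (standard error 0.114, Benjamini-Hochberg adjusted p = 0.00437 in edgeR's quasi-likelihood test) on counts. In limma's 3 fits on TPM it did not pass, with the adjusted p ranging from 0.0004902 to 0.159 over all alternatives (Benjamini-Hochberg, edgeR's quasi-likelihood test included).

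The Dishevelled genes DVL1, DVL2 and DVL3 pass the signal from Frizzled receptors to the complex. DVL2 had 30.8, 30.6 and 35.8 TPM in the DKK1-SE+/+ samples and 44.4, 35.7 and 38.4 TPM in the DKK1-SE-/- samples. The TPM of DKK1-SE-/- replicate 2 was just below that of DKK1-SE+/+ replicate 3, while the CPM did not overlap (47.4, 47.1 and 52.3 against 85.5, 64.02 and 59.2). DVL2 had a log2 fold change of 0.51 (standard error 0.142, Benjamini-Hochberg adjusted p = 0.0159 in edgeR's quasi-likelihood test). The adjusted p of DVL2 was 0.0607 without DKK1-SE+/+ replicate 1 and 0.06699 without DKK1-SE+/+ replicate 2, and ranged from 0.00191 to 0.126 over the alternatives (Benjamini-Hochberg, edgeR's quasi-likelihood test and the other tools). It did not pass in limma's fits on TPM or with a correction for GC content. DVL1, DVL3 and the APC relative APC2 did not pass and overlapped between the groups, with log2 fold changes of 0.06, -0.14 and 0.14.

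All 5 transcription factor genes were tested. CTNNBIP1, which keeps beta-catenin from TCF factors, was the most abundant by mean TPM, at 17.2, 19.3 and 27.9 TPM in the DKK1-SE+/+ samples and 17.4, 19.8 and 15.4 TPM in the DKK1-SE-/- samples. The groups overlapped, and CTNNBIP1 had a log2 fold change of -0.22 (standard error 0.1498, Benjamini-Hochberg adjusted p = 0.273 in edgeR's quasi-likelihood test). TCF7L2, the most abundant of the TCF factors, had 16.4, 18.7 and 21. TPM against 13.1, 11.7 and 12.6 TPM. The deleted samples were all lower, and TCF7L2 had a log2 fold change of -0.41 (standard error 0.128, Benjamini-Hochberg adjusted p = 0.0256 in edgeR's quasi-likelihood test). Its adjusted p was 0.0737 without DKK1-SE+/+ replicate 2, 0.141 without DKK1-SE+/+ replicate 3 and 0.0871 without DKK1-SE-/- replicate 2, and ranged from 0.0155 to 0.141 over the alternatives (Benjamini-Hochberg, edgeR's quasi-likelihood test and the other tools). The call of TCF7L2 therefore rested on each of these 3 libraries.

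TCF7L1, a factor that mostly represses targets, had 4.04, 4.98 and 5.28 TPM in the DKK1-SE+/+ samples and 2.77, 2.43 and 2.29 TPM in the DKK1-SE-/- samples. No values overlapped, and TCF7L1 fell with a log2 fold change of -0.79 (standard error 0.184, Benjamini-Hochberg adjusted p = 0.00639 in edgeR's quasi-likelihood test), which passed in every alternative tried. LEF1 was the TCF and LEF factor that went up. Its TPM was 1.18, 1.2 and 2.75 in the DKK1-SE+/+ samples and 2.63, 3.09 and 3.37 in the DKK1-SE-/- samples. The TPM of DKK1-SE+/+ replicate 3 lay above that of DKK1-SE-/- replicate 1, so the groups overlapped on this scale, while its CPM were apart (1.105, 0.596 and 1.05 against 2.64, 2.65 and 3.39). LEF1 rose with a log2 fold change of 1.64 (standard error 0.313, Benjamini-Hochberg adjusted p = 0.00211 in edgeR's quasi-likelihood test). In limma's 3 fits on TPM it did not pass, and the adjusted p of LEF1 ranged from 2.67e-05 to 0.107 over the alternatives (Benjamini-Hochberg, edgeR's quasi-likelihood test included). TCF7 had a log2 fold change of -0.34 and did not pass (adjusted p = 0.0863, Benjamini-Hochberg, edgeR's quasi-likelihood test).

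The feedback targets are genes that beta-catenin and TCF factors raise in many tissues and that, SP5 apart, damp the pathway outside the nucleus. ZNRF3, which removes Frizzled receptors from the membrane, was the most abundant by mean TPM. It had 5.17, 5.65 and 5.37 TPM in the DKK1-SE+/+ samples and 4.44, 3.07 and 4.17 TPM in the DKK1-SE-/- samples. All 3 deleted samples were lower, with a log2 fold change of -0.58 (standard error 0.132, Benjamini-Hochberg adjusted p = 0.00552 in edgeR's quasi-likelihood test). In limma's 3 fits on TPM the adjusted p of ZNRF3 did not pass, and over all alternatives it ranged from 0.000374 to 0.127 (Benjamini-Hochberg, edgeR's quasi-likelihood test included). AXIN2, the target most used as a readout of the pathway, had 1.62, 1.5 and 1.28 TPM against 0.53, 0.74 and 0.44 TPM. Its highest deleted sample was below its lowest unedited sample, and AXIN2 fell with a log2 fold change of -1.64 (standard error 0.256, Benjamini-Hochberg adjusted p = 0.000646 in edgeR's quasi-likelihood test). AXIN2 passed in each alternative but limma's fit on genes with a mean TPM of at least 1 (adjusted p = 0.0513), over a range from 1.69e-06 to 0.0513 (Benjamini-Hochberg, edgeR's quasi-likelihood test included). Exons of AXIN2 share 1316 bases with ENSG00000266076 on the same strand, which had no more than 0.12 expected counts in any sample.

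NKD2, which binds Dishevelled proteins, had 3.62, 6.31 and 4.81 TPM in the DKK1-SE+/+ samples and 1.89, 2.71 and 2.13 TPM in the DKK1-SE-/- samples. The groups of NKD2 did not overlap, and it fell with a log2 fold change of -0.91 (standard error 0.216, Benjamini-Hochberg adjusted p = 0.00693 in edgeR's quasi-likelihood test), a call that held in every alternative tried. NOTUM, an enzyme that strips the lipid from Wnt proteins, had 0.95, 1.11 and 0.66 TPM against 0.56, 0.32 and 0.24 TPM. These values did not overlap, but with 5 to 29 counts a sample NOTUM had a log2 fold change of -1.12 (standard error 0.455, Benjamini-Hochberg adjusted p = 0.07303 in edgeR's quasi-likelihood test) and did not pass. It passed without DKK1-SE-/- replicate 1 (adjusted p = 0.0263, Benjamini-Hochberg, edgeR's quasi-likelihood test). It also passed with a correction for GC content and in limma on log2(TPM + 1) (0.0403) and log2(TPM + 0.1) (0.04603), and its adjusted p ranged from 0.0143 to 0.209 over the alternatives (Benjamini-Hochberg, limma and edgeR's quasi-likelihood test among the tools). Of only 4 tested feedback targets, 3 were lower, beside 19.5% of all tested genes, and none was higher, beside 19.8%. NKD1 and SP5 had at most 11 and 4 counts.

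Summing the TPM of a family shows how its make-up differed. The 10 Frizzled genes summed to 31.8, 34.2 and 32.1 TPM in the DKK1-SE+/+ samples and 15.5, 14.3 and 15.4 TPM in the DKK1-SE-/- samples. Less Frizzled transcript was thus present in each deleted sample, by more than the spread within either group. FZD6 made up 55.2% ± 1.57 of the sum in the unedited samples and 29.6% ± 7.395 in the deleted samples (SD, n = 3). FZD2 made up 7.38% ± 1.16 and 33.4% ± 7.03 (SD, n = 3), so that in DKK1-SE-/- replicates 1 and 2 it exceeded FZD6. In replicate 3 FZD6 remained the larger share, at 38.0% against 25.5% for FZD2. The 14 Wnt ligands summed to 57.5, 67.4 and 66.1 TPM and 58.1, 55.4 and 52.9 TPM, which overlapped. WNT5B rose as a share of them from 46.3% ± 1.32 to 57.4% ± 1.59 (SD, n = 3), and the share of WNT7B was 39.5% ± 3.11 and 28.3% ± 2.06. The shares of WNT5B and of WNT7B did not overlap between the groups. The 4 TCF and LEF genes summed to 28.2, 31.9 and 36.95 TPM and 24.2, 21.7 and 25.6 TPM, with no overlap. LEF1 made up 5.13% ± 2.02 of them in the unedited samples and 12.7% ± 1.72 in the deleted samples (SD, n = 3), and TCF7L2 remained the largest in all 6.

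**Figure D3:**
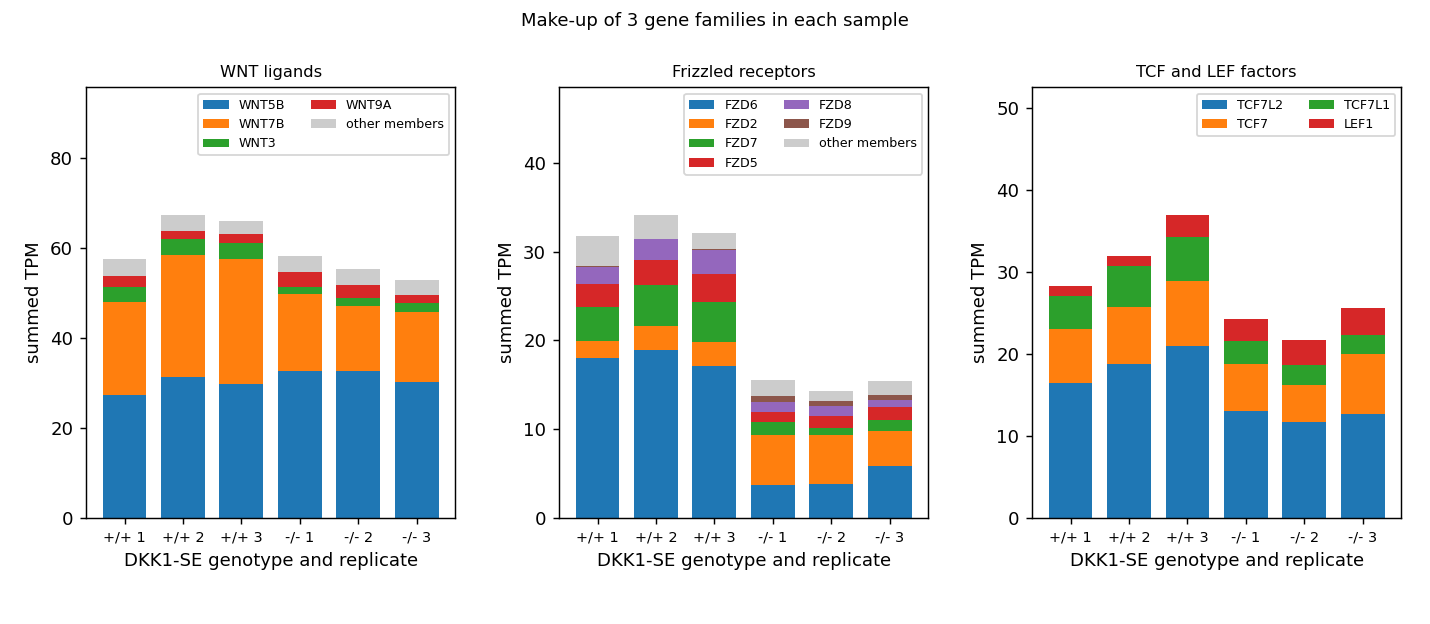
Summed TPM of the Wnt ligands, the Frizzled receptors and the TCF and LEF factors in each sample, with each bar divided by gene. The Frizzled bars of the DKK1-SE-/- samples reach 14.3 to 15.5 TPM against 31.8 to 34.2 TPM in the DKK1-SE+/+ samples, with FZD6 in blue and FZD2 in orange.

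A further 117 pathway genes outside the list were read for comparison. Of these, 89 were tested, 25 were higher and 21 lower (51.7% in all, beside 39.3% of all tested genes), and their median log2 fold change was 0.08. The co-receptors LRP5 and LRP6, which DKK1 binds, overlapped between the groups. LRP5 had 67.6, 76.2 and 88.99 TPM against 93.5, 78.5 and 82.02 TPM and a log2 fold change of 0.28, and LRP6 had a log2 fold change of -0.22, and neither passed (adjusted p = 0.0973 and 0.212, Benjamini-Hochberg, edgeR's quasi-likelihood test). Both passed without DKK1-SE-/- replicate 3 (adjusted p = 0.0304 and 0.03202, Benjamini-Hochberg, edgeR's quasi-likelihood test). The DKK1 receptor KREMEN1 passed narrowly on counts, with a log2 fold change of 0.64 (standard error 0.226, Benjamini-Hochberg adjusted p = 0.0419 in edgeR's quasi-likelihood test), while its TPM overlapped. The call of KREMEN1 ended without any 1 of 5 libraries, at an adjusted p of 0.142, 0.0928 and 0.0657 without DKK1-SE+/+ replicates 1, 2 and 3 and 0.174 and 0.0609 without DKK1-SE-/- replicates 1 and 2 (Benjamini-Hochberg, edgeR's quasi-likelihood test). KREMEN2, its relative, had a log2 fold change of 0.00. Among 22 tested nuclear cofactors, 8 were higher (36.4%, beside 19.8% of all tested genes) and 2 lower (9.09%, beside 19.5%). These counts of cofactors depended on the samples. With 1 sample left out, 2 to 10 were higher and 1 to 3 lower. Among 28 tested cytoplasmic regulators 6 were higher (21.4%) and 7 lower (25%), and with 1 sample left out these counts ranged from 3 to 8 and from 5 to 8. Of 12 tested genes of planar cell polarity, a branch that shares Frizzled and DVL proteins, 3 were higher (25%) and 5 lower (41.7%). Of DKK1 and 3 further tested genes that act on ligands or co-receptors, 2 were higher and 1, DKK1, lower. Of 19 other target genes tested, 5 were higher (26.3%) and 6 lower (31.6%), and with 1 sample left out 3 to 6 were higher and 4 to 7 lower.

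The other pathway genes past an unadjusted p of 0.05 and the limit of 1.2 on the log2 fold change with a mean TPM of at least 1 in a group were DKK1 and 5 others. DACT2, which binds Dishevelled proteins, had 14.2, 15.6 and 15.7 TPM in the DKK1-SE+/+ samples and 1.13, 1.66 and 1.9 TPM in the DKK1-SE-/- samples, with a log2 fold change of -3.21 (standard error 0.147, Benjamini-Hochberg adjusted p = 1.70e-07 in edgeR's quasi-likelihood test). PRICKLE1, a planar cell polarity protein, had 2.69, 0.96 and 2.12 TPM against 6.98, 4.5 and 8.09 TPM, with a log2 fold change of 2.55 (standard error 0.166, Benjamini-Hochberg adjusted p = 1.93e-06 in edgeR's quasi-likelihood test). That value is on counts, and the log2 ratio of the mean TPM of PRICKLE1 was 1.76. Both sets of samples were apart for DACT2 and for PRICKLE1, the former lower and the latter higher in the deleted cells. USP34, an enzyme that stabilises AXIN proteins, fell from 45.7, 52.5 and 49.8 TPM to 13.8, 18.2 and 22.1 TPM, a log2 fold change of -1.26. PYGO1, a cofactor of beta-catenin, fell from 2.22, 1.91 and 1.34 TPM to 0.44, 0.35 and 0.37 TPM. Its log2 fold change was -1.51 on counts, and the log2 ratio of its mean TPM was -2.24. GREM1, a secreted inhibitor of BMP proteins, had 90, 55.1 and 88 counts in the DKK1-SE+/+ samples and 1, 0 and 0 counts in the DKK1-SE-/- samples. GREM1 was therefore nearly lost from all 3 deleted samples, and no fold change is given against a group at 0 and 1 counts.

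Position on the chromosomes was compared, since neighbouring genes can differ together. For each tested member, the median log2 fold change was taken over the other tested genes within 5 Mb on either side. This median ranged from -0.92 around SFRP1 to 0.67 around GSK3B. SFRP1 lies on chromosome 8 from 41261962 to 41309473 (hg38), and 76.7% of its 43 tested neighbours passed as lower. SFRP1 differed from their median by -1.11 on the log2 scale. GSK3B lies on chromosome 3 from 119821321 to 120094994, and 64.4% of its 45 tested neighbours passed as higher, so that its own 0.96 exceeded their median by 0.29. TCF7L2 fell less than the genes around it (-0.41 beside a median of -0.80). CTNNB1, at -0.64, was near its neighbours at -0.47, and RYK, at -0.44, near its neighbours at -0.27. The medians around FZD5, FZD7, TCF7L1 and FZD8 were -0.56, -0.52, -0.50 and -0.35. Of the neighbours of these 4 members, 60%, 62.3%, 56.5% and 50% passed as lower. The 4 members differed from those medians by -0.41, -1.18, -0.28 and -0.61. FZD6 and AXIN2 departed further, at -1.71 and -1.56 from the medians around them. The median of the neighbours was below 0 for 15 of the 19 lower members and for 8 of the 14 that did not pass. It was above 0 for 8 of the 10 higher members, the others being LGR4 (-0.21) and LEF1 (-0.25), and these tallies were not tested. AXIN1 stood at 0.78 among neighbours at 0.48, of which 52.3% passed as higher. Whether regional differences between the clone and the unedited cells contributed was not tested.

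**Figure D4:**
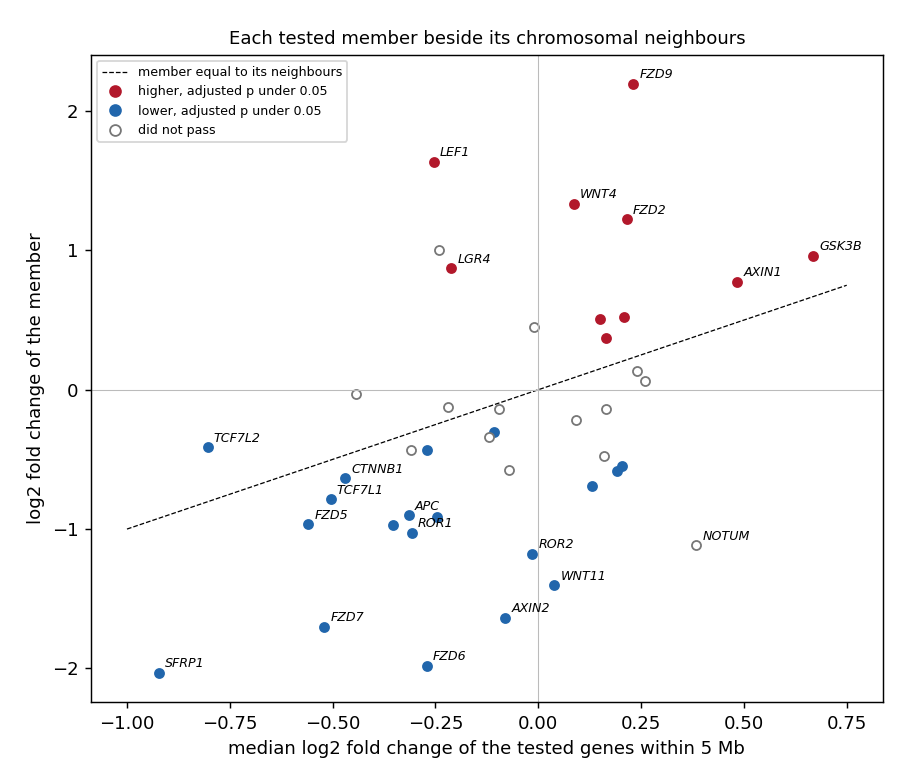
Log2 fold change of each tested member against the median log2 fold change of the other tested genes within 5 Mb of it, with the dashed line where the values are equal. Colours show members that passed as higher (red), as lower (blue) or did not pass (open). SFRP1 is at the lower left and GSK3B at the right edge, while LEF1 and FZD9 lie far above the line and FZD6 and AXIN2 far below it.

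GC content moved with the fold changes across the whole table. Over 15167 tested genes with a value, Spearman's rho between log2 fold change and the GC content of the longest transcript was 0.40, across genes that are not independent of each other. The median log2 fold change was -0.37 in the fifth of genes with the lowest GC content and 0.31 in the fifth with the highest. The tested members had a median GC content of 54.9%, beside 48.2% for all tested genes, and their median fold change lay below 0 while GC-rich genes were on the whole higher. With a correction for GC content in each library, 31 members passed, 8 higher and 23 lower, of which 25 had also passed without it. Of all tested genes 40.98% passed in that fit, and 48.8% of those were higher. The members that passed only without it were WNT5B, RYK, DVL2 and CSNK1A1. Those that passed only with it were PORCN, DVL1, DVL3, CTNNBIP1, TCF7 and NOTUM, with log2 fold changes of -0.40, -0.35, -0.37, -0.47, -0.53 and -1.52. FZD6, whose transcript has a GC content of 37.7%, moved from -1.98 to -1.58, and FZD9, at 68.5%, from 2.19 to 1.78. SFRP1 (-2.16), AXIN2 (-1.77) and LEF1 (1.46) changed less. The part of GC content in these results was not tested beyond this correction.

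**Figure D5:**
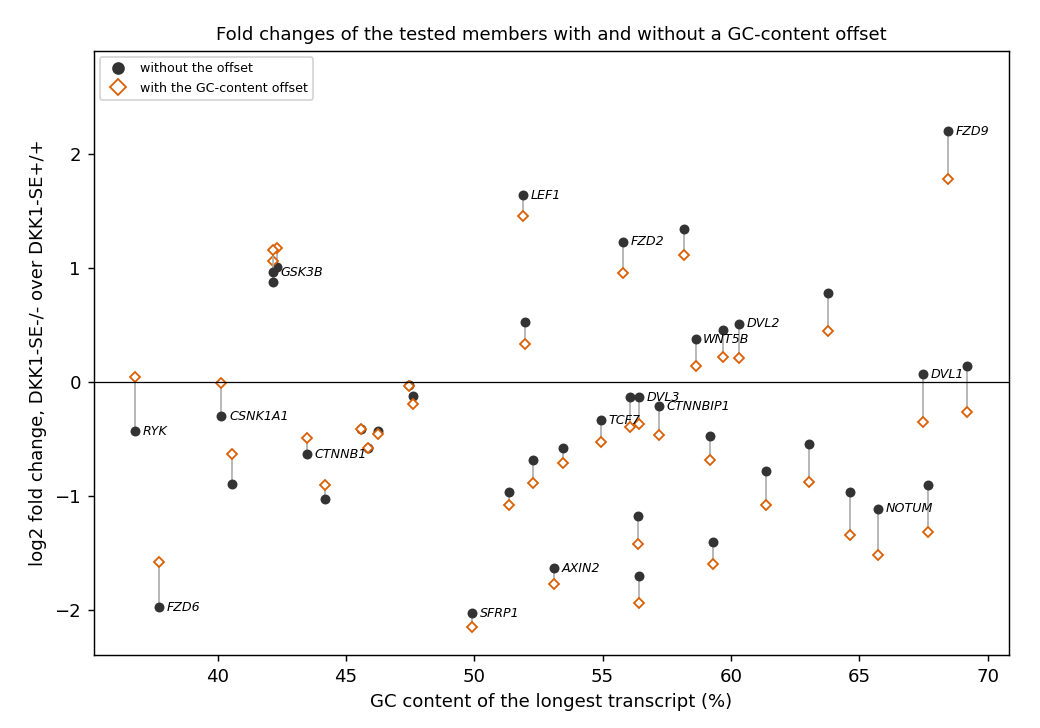
Log2 fold change of each tested member, DKK1-SE-/- over DKK1-SE+/+, against the GC content of its longest transcript in percent, without (filled circles) and with (open diamonds) a correction for GC content. GC-poor members such as FZD6 and RYK moved up with the correction, and GC-rich members such as DVL1 and NOTUM moved down.

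The scale of the values also bore on the balance of directions. Among all tested genes that passed, 50.5% were higher in the DKK1-SE-/- samples on counts and 35.8% were higher in limma's fit on log2(TPM + 1). Of all tested genes, 39.3% passed on counts and 27.4% on log2(TPM + 1). Among the members, 10 were higher and 19 lower on counts, against 6 higher and 18 lower on log2(TPM + 1). Of these members, 23 passed on both scales. SFRP1, FZD5, FZD6, FZD7, FZD8, ROR1, ROR2, WNT3, CTNNB1, TCF7L1 and NKD2 were lower and FZD2, LGR4, AXIN1 and GSK3B were higher, past the threshold, in every alternative tried. Leaving out each sample in turn gave 22 to 31 members past the threshold, beside 26.4% of all tested genes in the fit with the fewest (without DKK1-SE+/+ replicate 2) and 49.5% in that with the most (without DKK1-SE-/- replicate 3). In all, 22 members passed in all 6 of these fits and in the fit of all samples. The share of all tested genes that did so can be no more than the 26.4% of the fit with the fewest.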

How the data were processed

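The 3 DKK1-SE-/- and 3 DKK1-SE+/+ samples were read from the deposited table, in which the authors give an expected count and a length-scaled TPM for each gene and sample, not pooled, on genome build hg38. The aligner, counter and annotation are not given in the sources used here. The authors' gene length and their own comparison (columns with a ratio, its log2, and an unadjusted and adjusted p-value) were not used. Expected counts were rounded, and 32.3% of nonzero values were not whole. Genes kept by edgeR's filterByExpr (minimum count 10) were normalised with TMM and tested with edgeR's quasi-likelihood test, adjusted by Benjamini-Hochberg over all tested genes, in R 4.3.3 with edgeR 4.0.16. Total counts per sample lay between 16475800 and 21822300. Alternatives were size factors by RLE, DESeq2 1.42.0, no filter, each sample left out, the replicate number as a block, limma 3.58.1 (limma-trend) on log2(TPM + 1) or log2(TPM + 0.1), a mean TPM of at least 1, a GC-content offset for each library in 40 bins of genes, and other limits for a DEG. The pipeline was tested on simulated data. Positions are from GENCODE, and promoters from RefSeq. Members and lists were chosen with earlier results of these data known. Values in every sample are given for members with an adjusted p under 0.05 and a log2 fold change of at least 1 in size. They are also given for the most abundant member of each role by mean TPM. The other members given in this way, among them WNT3, WNT5B, WNT7B, FZD5, FZD8, LGR4, CTNNB1, AXIN1, APC, GSK3A, GSK3B, DVL2, TCF7L1, TCF7L2, NKD2 and NOTUM, were added after their values were seen. Of the other pathway genes, DKK1, the co-receptors and those past the DEG limit on the log2 fold change with a mean TPM of at least 1 in a group are named. Figures were drawn with Python 3.11.15 and matplotlib 3.10.9.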

Additional observations from a re-analysis of the deposited data

How the results depend on the processing

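Against 29 members past the threshold with all samples, 22 to 31 passed with 1 sample left out, 25 to 31 with the other fits on counts, and 24 and 23 in limma's fits on log2(TPM + 1) and log2(TPM + 0.1). Of all tested genes, 39.3% passed with all samples and 26.4% to 49.5% with 1 sample left out. The other fits on counts gave 21.1% (no filter) to 40.98% (GC-content offset). Limma's fits on log2(TPM + 1) and log2(TPM + 0.1) gave 27.4% and 27.2%. Fits on TPM moved some counts by more than 1.5 times. Higher members numbered 6 on log2(TPM + 1), 5 on log2(TPM + 0.1) and 4 on genes with a mean TPM of at least 1, where 19 members, 24 other pathway genes and 3590 of all tested genes passed. Log2(TPM + 1) gave 4 DEGs among the members, as did the mean TPM of at least 1, and 29 other pathway genes past the threshold. Fewer genes were tested with a mean TPM of at least 1, and otherwise the cause was not tested. A limit of 1.2 on the linear fold change, as the study words it, gave 31 DEGs among the members, since that limit is lower than the same number on the log2 scale. With 1 sample left out, higher members ranged from 8 to 11, lower members from 14 to 20, DEGs among the members from 8 to 10, other pathway genes from 31 to 57 and all tested genes from 4001 to 7518. The share of all tested genes called DEG was not taken in these fits or in those on TPM. The counts of DEGs among the members in them therefore have no background beside them. RYK alone changed direction among the members given in every sample, to a log2 fold change of 0.037 with the GC-content offset and 0.035 with the GC-content offset and the replicate block, and the cause was not tested. With the replicate block, 25 members passed, all among the 29, beside 32.8% of all tested genes. WNT5B, WNT11, CSNK1A1 and TCF7L2 did not pass with it. Residual correlations between samples with the same number were -0.18 to -0.11, and between other samples -0.08 to 0.23. Samples with the same number were thus not more alike in their residuals. These few values, from 3 samples a group, cannot settle whether samples with the same number shared a culture or batch. Depth limits the 15 members not tested and those with few counts, such as WNT11, FZD9 and NOTUM. A single clone stands for the deletion, so clone and genotype cannot be told apart.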
